A study of Mus musculus with 36 samples.

Results

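The vitamin A derivative retinoic acid acts in the fetal gonad through a small set of genes, and 10 of them were followed here across sorted germ and supporting cells of the mouse. They are the retinal dehydrogenase genes Aldh1a1, Aldh1a2 and Aldh1a3, the retinal reductase gene Dhrs3, the retinoic acid hydroxylase genes Cyp26a1 and Cyp26b1, the binding protein genes Crabp1 and Crabp2, the retinol receptor gene Stra6, and the retinoic acid receptor gene Rarb. The genes were taken by name out of 19938 genes with a probe set of 1 gene symbol. Each of the 10 had 1 such probe set, and all 10 passed the filter on dim genes that left 17571 genes for testing. RNA was read on Affymetrix Mouse Gene 1.0 ST arrays from fetal gonads that had been pooled by sex before sorting. There were 12 groups of 3 arrays, 1 for each cell type, sex and stage, the stages being called TS13 (before sexual differentiation), TS24 (during it) and TS34 (after it). Germ cells carried an Oct4 reporter in descendants of C57BL/6NJ on a mixed background. Supporting cells of XX gonads at every stage, and of XY gonads at TS13, came from Tg(Sry-EGFP)92Ei mice bred from CD-1. Supporting cells of XY gonads at TS24 and TS34 came from Tg(Sox9-cre/ERT2)1Msan/J mice bred from C57BL/6. The labels name no fluorescent allele for the Oct4 and Sox9 groups. The third array of XX germ cells at TS24 had a somatic profile, with a mean of 5.65 over 5 germ cell markers, and was left out, so that group has 2 arrays and the set holds 35.

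Retinol is oxidised to retinal and then, by the Aldh1a enzymes, to retinoic acid, while Dhrs3 turns retinal back into retinol and the Cyp26 enzymes break retinoic acid down. Retinoic acid binds Crabp proteins in the cytoplasm and acts in the nucleus on pairs of RAR and RXR receptors, and Rarb is itself a classical target of the pathway. In the fetal ovary the pathway is known for its link to Stra8 and the entry of germ cells into meiosis, and in the fetal testis Cyp26b1 of supporting cells is known to limit it.

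Receptor pairs bind direct repeats of a hexamer, called DR5 where 5 bases separate the copies and DR2 where 2 do. RefSeq promoter windows of GRCm38.p6, running from 250 bases before to 50 bases after each start, were searched on both strands for these repeats by name. Windows were found for 8 of the 10 genes (14 windows), with no entry used for Aldh1a3 and Crabp2. DR5 was found in 2 of them, those of Rarb and Cyp26a1, and DR2 in none of the 14. Of all 32851 windows 0.0974% held DR5 and 0.268% held DR2. The 60 bases around each DR5 are shown, with the 2 hexamers in capitals. A match describes the letters and is not evidence of binding.
Rarb, chr14:16575477-16575536, minus strand, repeat 53 to 37 bases before the start: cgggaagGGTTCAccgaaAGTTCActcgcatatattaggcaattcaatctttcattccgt
Cyp26a1, chr19:37697748-37697807, plus strand, repeat 32 to 16 bases before the start, hexamers on the opposite strand: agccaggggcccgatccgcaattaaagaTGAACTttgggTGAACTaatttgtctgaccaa

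All levels below are log2 expression values, in which a difference of 1 is a doubling, and a level is read only against other arrays of the same gene. A gene is called where limma's Benjamini-Hochberg adjusted p over all 17571 genes is under 0.05, two-sided. Differences are given ± their standard error, with n = 3 arrays in a group unless stated. The labels do not say that arrays of a group came from separate pools, so the p-values measure the spread between these arrays, which may be technical. In sorted bulk samples fewer cells with a transcript and less of it per cell cannot be told apart.

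The sort left a clear separation of the lineages on the 35 arrays. The mean of the 5 germ cell markers was 10.36 to 11.38 on germ cell arrays and 5.48 to 6.93 on supporting cell arrays, and the mean of 5 supporting cell markers was 9.76 to 10.50 on supporting and 6.49 to 7.26 on germ cell arrays. Among 5 pregranulosa markers Fst, Irx3, Bmp2 and Wnt4 were higher in XX than in XY supporting cells at every stage, while Foxl2, a defining gene of that lineage, had group means of 5.99 to 6.61 in all 12 groups. Of 5 Sertoli markers, 3 were called higher in XY supporting cells at TS13 (Sox9, Cst9 and Aard) and all 5 at TS24 and TS34. Other cell types differed too. In XY supporting cells at TS34 all 4 fetal Leydig markers measured were called higher than in XX, with list means of 6.91 to 7.21 on XY and 5.66 to 5.74 on XX arrays, and Cyp17a1 higher by 1.94 ± 0.23. Erythroid markers were called higher in XY for 2 of 3 genes at TS24 and 1 of 3 at TS34, and for 0 of 3 at TS13. There the erythroid list mean was 7.23, 8.48 and 8.86 on the XY and 7.20, 7.30 and 7.27 on the XX arrays, and the globin gene Hbb-y differed by 2.09 ± 0.74 (adjusted p = 0.128). Of the 4 Leydig markers Star was called higher in XY at TS24 (0.92 ± 0.21) and Cyp11a1 lower in XY at TS13 (-0.97 ± 0.23). Of the 5 stromal markers measured 1 was called, Pdgfra, higher in XY at TS13 (1.80 ± 0.26) and TS24 (0.80 ± 0.26), while Dcn, Tcf21, Col1a1 and Col3a1 had differences of -0.18 to -0.03 at TS13 and -0.15 to 0.13 at TS24. The part of these cells in the supporting cell differences below was not tested. At TS24 and TS34 the sex of supporting cells and the mouse line cannot be told apart, nor can stage and line between TS13 and TS24 in XY supporting cells. At TS13 both sexes were of the same line.

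**Figure D1:**
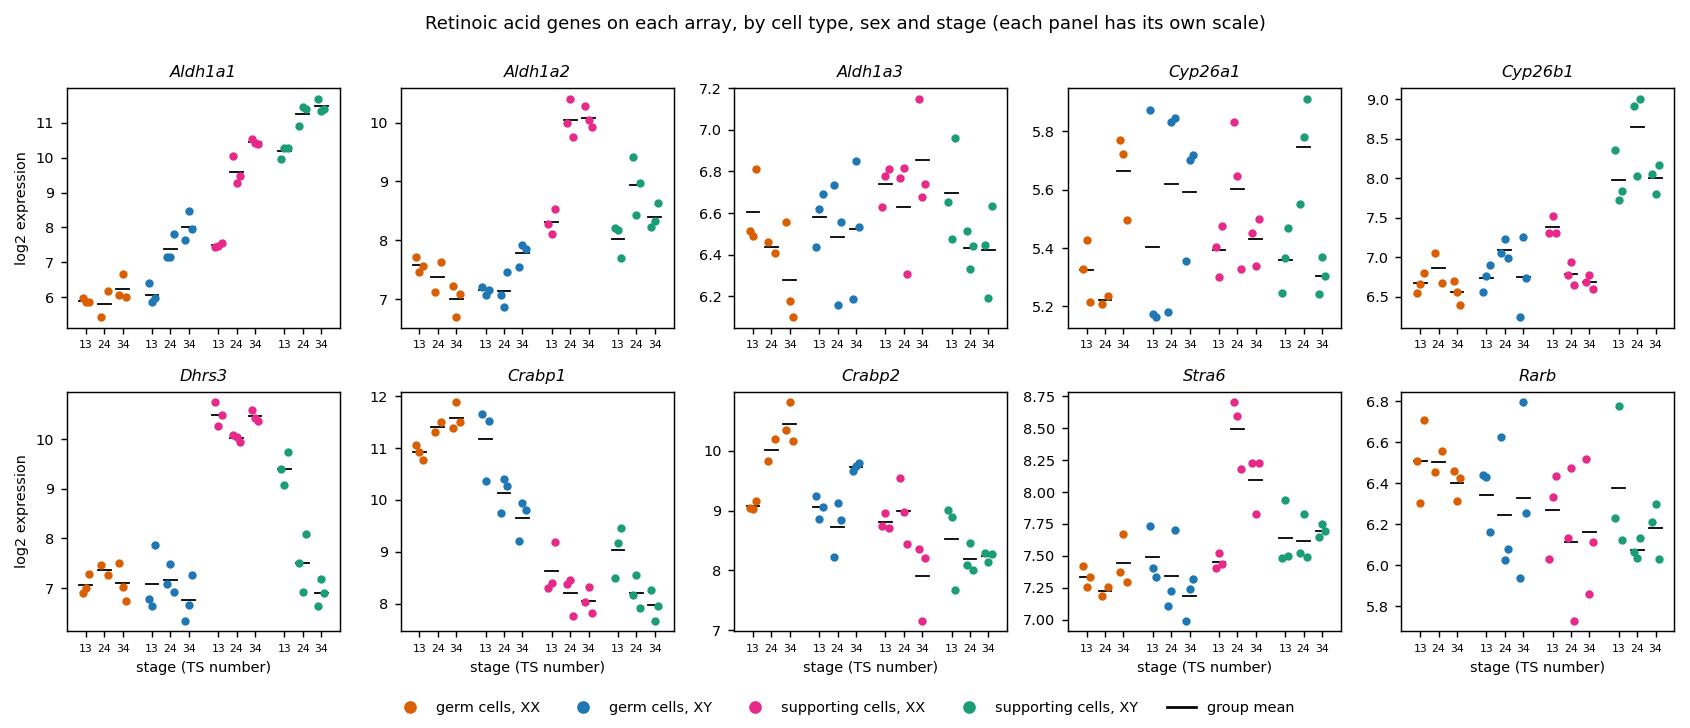
Level of each of the 10 genes on each of the 35 arrays (log2 expression, vertical axis) by stage (horizontal axis) and by cell type and sex (colour), with a bar at each group mean. Aldh1a1 climbed highest in XY supporting cells, at 11.33 to 11.68 at TS34, Dhrs3 stayed near 10 at every stage in XX supporting cells, and Crabp1 lay highest in germ cells; Cyp26a1 and Rarb moved over less than 1 unit of their scale between group means.

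Sex differences of the 10 genes were called in every comparison except that of germ cells at TS13. Between XY and XX germ cells 0 of 10 were called at TS13, and 0 had an unadjusted limma p under 0.05, where 0.0285% of all genes tested were called. There were 3 of 10 at TS24 (1.96% of all genes) and 3 of 10 at TS34 (10.5%). In supporting cells 2 of 10 were called at TS13 (3.77%), 6 of 10 at TS24 (15.3%) and 4 of 10 at TS34 (14.0%). The median XY minus XX difference over the 10 genes was 0.049, -0.079 and -0.071 in germ cells at TS13, TS24 and TS34, beside 0.024, 0.020 and 0.063 over all genes. In supporting cells it was 0.039, -0.118 and -0.109, beside -0.065, 0.038 and -0.007. Aldh1a1 and Cyp26b1 were the members called higher in XY supporting cells, and Aldh1a2, Dhrs3, Crabp2 and Stra6 those called lower.

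**Figure D2:**
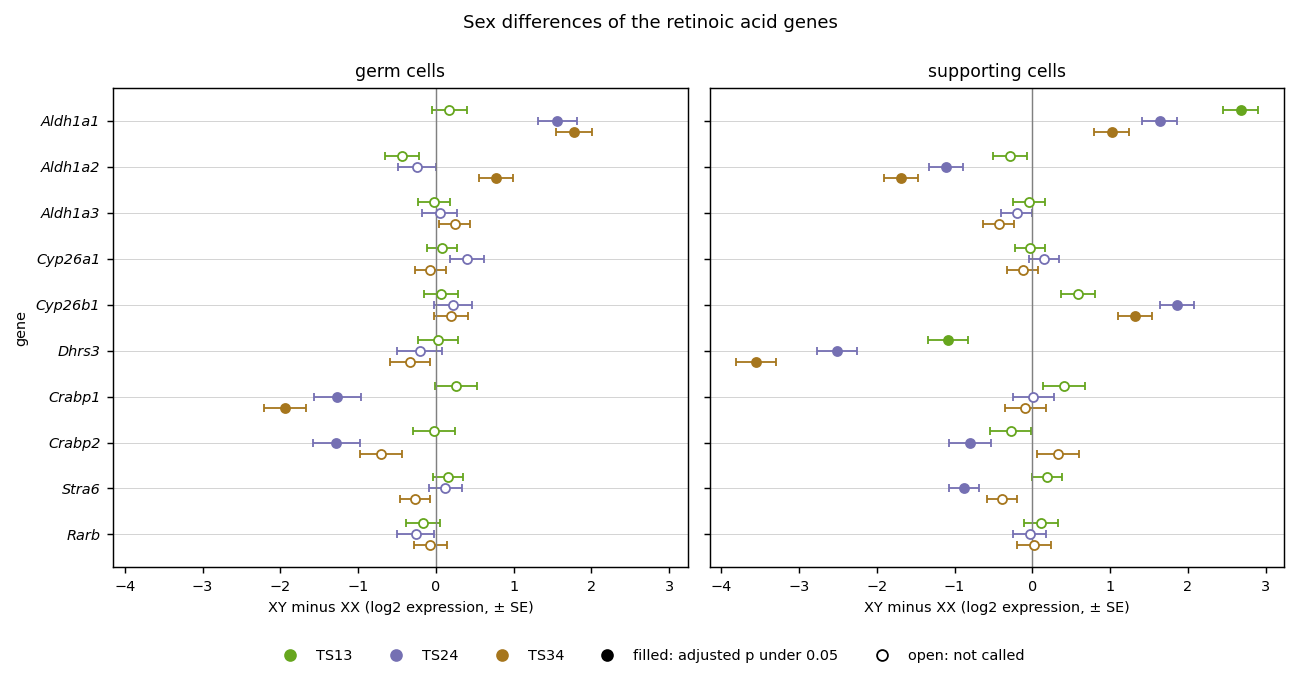
XY minus XX difference of each gene (log2 expression ± SE, horizontal axis) in germ cells (left) and supporting cells (right) at 3 stages (colour), filled where limma's adjusted p is under 0.05. The Dhrs3 difference in supporting cells runs from -1.09 at TS13 to -3.56 at TS34, while that of Aldh1a1 runs from 2.68 to 1.02.

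Stage steps were tested within each cell type and sex. In XX germ cells 0 of 10 genes were called from TS13 to TS24 (1.21% of all genes tested) and 0 from TS24 to TS34 (8.87%), with 1 gene at an unadjusted limma p under 0.05 at each step. In XY germ cells 2 were called at the first step (1.50%) and 1 at the second (2.73%). In XX supporting cells 3 were called at the first step (3.36%) and 1 at the second (0.643%). In XY supporting cells 5 were called at the first (16.8%) and 0 at the second (1.06%), where 4 had an unadjusted limma p under 0.05. The overall level of the arrays moved as well, with a median step over all genes of 0.222 and -0.173 in XY supporting cells, 0.106 and -0.135 in XX supporting cells, and -0.153 at the second step in XX germ cells. Among the called steps, the rise of Cyp26b1 in XY supporting cells and the fall of Crabp2 in XX supporting cells were lost after scaling, as given with those genes.

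Aldh1a1 was higher in XY than in XX supporting cells at all 3 stages, by 6.40-fold at TS13 and 2.02-fold at TS34. Its enzyme makes retinoic acid from retinal. At TS13 the XX arrays had 7.45, 7.48 and 7.56 and the XY arrays 9.97, 10.28 and 10.28. At TS24 XX arrays had 10.04, 9.28 and 9.47 against 10.89, 11.44 and 11.39 in XY. At TS34 XX arrays had 10.54, 10.41 and 10.39 against 11.68, 11.33 and 11.38 in XY. Every XY array lay above every XX array of its stage. The XY minus XX difference came to 2.68 ± 0.23 for TS13 (adjusted p = 4.99e-13), 1.64 ± 0.23 for TS24 (1.02e-07) and 1.02 ± 0.23 for TS34 (6.47e-04). Both sexes rose from TS13 to TS24, XX by 2.10 ± 0.23 (adjusted p = 1.65e-09) and XY by 1.06 ± 0.23 (5.01e-04). The second step was 0.85 ± 0.23 in XX (adjusted p = 0.0645), called after quantile normalization (1.05) and median centring (0.97), and 0.23 ± 0.23 in XY. The sex difference at TS34 was smaller than that at TS13 by 1.66, a change of -1.66 ± 0.32 (adjusted p = 2.66e-04). In order of group means XY supporting cells at TS34 and TS24 led, with overlapping ranges, followed without overlap by XX supporting cells at TS34.

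In germ cells Aldh1a1 parted the sexes from TS24 on. At TS13 XX arrays had 5.98, 5.87 and 5.86 and XY arrays 6.40, 5.86 and 5.97, which overlap. At TS24 the 2 XX arrays had 5.44 and 6.18 and the XY arrays 7.16, 7.17 and 7.80. At TS34 XX arrays had 6.06, 6.66 and 6.01 and XY arrays 7.64, 8.46 and 7.96. All XY arrays were above all XX arrays at the later stages. The difference came to 0.17 ± 0.23 for TS13, 1.56 ± 0.25 at TS24 (adjusted p = 5.77e-05) and 1.78 ± 0.23 at TS34 (5.94e-08). Aldh1a1 was above the array's 25th percentile on 34 of the 35 arrays. Its lowest group means were those of XX germ cells and of XY germ cells at TS13. A difference that uses such low values may be understated, which was not tested. XY germ cells rose by 1.30 ± 0.23 from TS13 to TS24 (adjusted p = 2.07e-04). The sex difference grew by 1.60 ± 0.32 from TS13 to TS34 (adjusted p = 9.93e-04). With the left-out library kept, the TS24 difference was 0.59 (adjusted p = 0.437). XY germ cells at TS34 (mean 8.02) minus XY supporting cells of that stage was -3.44 ± 0.23.

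The Sertoli marker Cst9, and Gatm, the gene most like Aldh1a1 over the 35 arrays, moved with it in XY germ cells. Cst9, a cystatin gene, was at 7.34, 7.54 and 7.79 on XY and 4.72 and 4.62 on XX germ cell arrays at TS24, a difference of 2.89 ± 0.34, and differed by 3.20 ± 0.30 at TS34. Gatm, which codes for a creatine synthesis enzyme, was higher by 1.77 ± 0.28 and 1.18 ± 0.25 at the same stages. In supporting cells at TS34 Cst9 averaged 12.56 in XY and 6.86 in XX, and Gatm 12.11 and 11.53. Of the 5 Sertoli markers Cst9 alone was called in germ cells, and Sox9, Amh, Dhh and Aard were not. The mean of the 5 was 7.10 to 7.56 on XY and 6.73 to 6.79 on XX germ cell arrays at TS24, and 7.01 to 7.55 and 6.37 to 6.67 at TS34. The mean of the 5 general supporting cell markers overlapped, at 6.83 to 7.20 on XY and 6.71 to 7.23 on XX arrays at TS24. Their part in the Aldh1a1 difference was not tested.

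**Figure D3:**
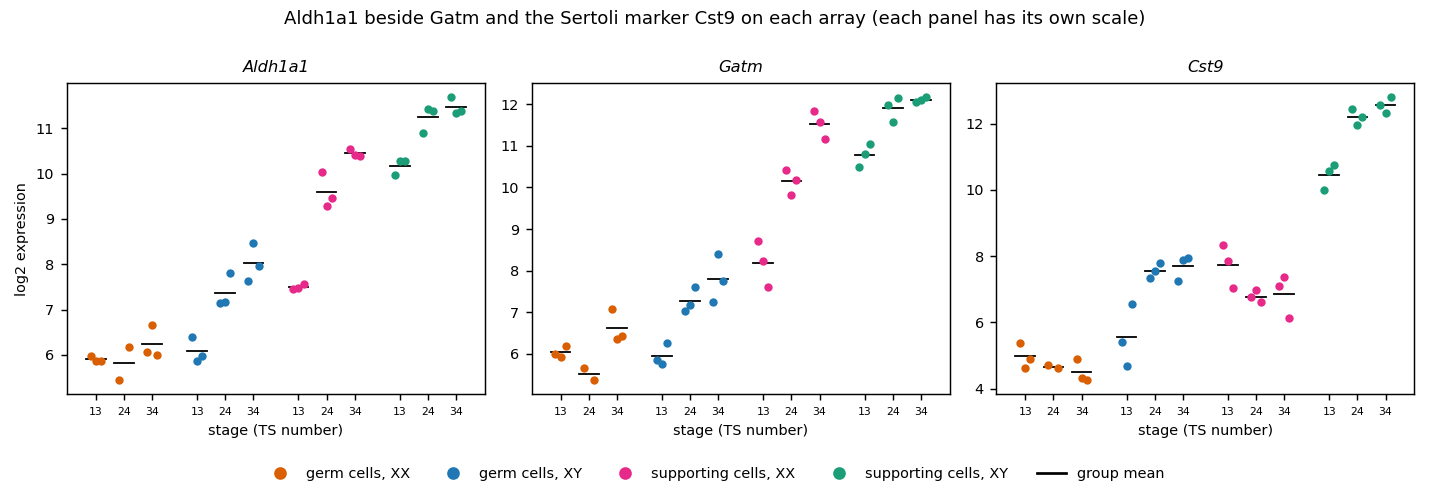
Aldh1a1, Gatm and Cst9 on each array (log2 expression, vertical axis) by stage (horizontal axis), cell type and sex (colour), with a bar at each group mean. In germ cells all 3 genes lie higher in XY than in XX arrays at TS24 and TS34, and each lies higher still in XY supporting cells. Gatm was picked for its likeness to Aldh1a1 over these same arrays.

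Aldh1a2, which codes for the main retinoic acid producing enzyme of many embryonic tissues, had the opposite sex difference to Aldh1a1 in supporting cells at the later stages. At TS24 the XX arrays had 9.99, 10.40 and 9.75 and the XY arrays 9.41, 8.43 and 8.97. At TS34 the XX arrays had 10.28, 10.05 and 9.93 and the XY arrays 8.23, 8.33 and 8.63. The sexes did not overlap at either stage. XY minus XX was -1.11 ± 0.22 at TS24 (adjusted p = 9.92e-05) and -1.69 ± 0.22 at TS34 (2.09e-08). At TS13, where both sexes were of 1 mouse line, XX arrays had 8.28, 8.11 and 8.54 and XY arrays 8.21, 8.17 and 7.70, a difference of -0.28 ± 0.22 that was not called (adjusted p = 0.911). XX supporting cells rose by 1.74 ± 0.22 from TS13 to TS24 (adjusted p = 9.06e-08), and the next step was 0.04 ± 0.22. XY supporting cells rose by 0.91 ± 0.22 at the first step (adjusted p = 0.00193), and without XY TS24 replicate 1 the value was 0.67 (adjusted p = 0.0501). The change of the sex difference from TS13 to TS34 was -1.40 ± 0.31 (adjusted p = 0.00169).

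Germ cells had Aldh1a2 at lower levels, with group means of 7.01 to 7.78. At TS34 the XY arrays had 7.56, 7.93 and 7.85 and the XX arrays 7.23, 6.71 and 7.09, so that all XY arrays were higher. The difference of 0.77 ± 0.22 was called (adjusted p = 0.0124). It was lost without XX replicate 2 (0.62, adjusted p = 0.116), XY replicate 2 (0.70, 0.0695) or XY replicate 3 (0.74, 0.0552). At TS13 and TS24 the differences were -0.43 ± 0.22 and -0.24 ± 0.24. The sex difference grew by 1.21 ± 0.31 from TS13 to TS34 (adjusted p = 0.0136), or by 1.06 without XX TS34 replicate 2 (0.0659). At TS34 the sex difference in germ cells stood 2.46 ± 0.31 above that in supporting cells (adjusted p = 1.81e-08), since the 2 cell types moved in opposite directions.

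Aldh1a3, the third retinal dehydrogenase gene, stayed within 6.10 to 7.15 on all 35 arrays. None of its 6 sex differences was called, and they ran from -0.43 to 0.24, the former in supporting cells at TS34 (± 0.20, adjusted p = 0.174). Its steps ran from -0.27 to 0.23, with none called. The exception was cell type at TS34 in XX gonads, where germ cells lay 0.58 below supporting cells (-0.58 ± 0.20, adjusted p = 0.0223). This call was lost without germ XX replicate 2 (-0.53, adjusted p = 0.0819) or 3 (-0.49, 0.108), or supporting XX replicate 1 (-0.43, 0.170).

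Dhrs3, the retinal reductase that lowers the supply of retinal for retinoic acid synthesis, had the widest sex difference of the 10 genes, in supporting cells. XX arrays held a high level at every stage, with 10.74, 10.25 and 10.48 at TS13, 10.08, 10.04 and 9.94 at TS24 and 10.59, 10.42 and 10.36 at TS34. XY arrays had 9.40, 9.07 and 9.74 at TS13, 7.51, 6.92 and 8.09 at TS24 and 6.63, 7.18 and 6.90 at TS34. No XY array reached the lowest XX array of its stage. XY minus XX came to -1.09 ± 0.26 for TS13 (adjusted p = 0.00512), -2.51 ± 0.26 at TS24 (3.99e-11) and -3.56 ± 0.26 at TS34 (4.29e-16), which is 11.8-fold. The TS13 call was lost without XX replicate 1 (-0.96, adjusted p = 0.0528) or XY replicate 2 (-0.92, 0.0618). XY supporting cells fell from TS13 to TS24, with a step of -1.90 ± 0.26 (adjusted p = 1.91e-07), and the next step was -0.61 ± 0.26 (adjusted p = 0.292). The XX steps, -0.47 ± 0.26 and 0.44 ± 0.26, were not called. The change of the sex difference from TS13 to TS34 was -2.47 ± 0.37 (adjusted p = 2.31e-06).

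Germ cells had Dhrs3 at 6.34 to 7.86 in both sexes, with overlapping arrays at every stage and sex differences of 0.03 ± 0.26, -0.20 ± 0.29 and -0.34 ± 0.26. XY supporting cells at TS34, with a mean of 6.90, came down to the range of germ cells, from which they did not differ by a called amount. Germ cells were lower than supporting cells in XX gonads at each stage, by 3.43, 2.65 and 3.36 (differences of -3.43 ± 0.26, -2.65 ± 0.29 and -3.36 ± 0.26). In XY gonads this was called at TS13 alone (-2.31 ± 0.26, adjusted p = 1.81e-10).

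Cyp26b1, which codes for the hydroxylase that clears retinoic acid in the fetal testis, was higher in XY supporting cells. At TS24 the XY arrays had 8.92, 8.02 and 9.01 and the XX arrays 6.78, 6.94 and 6.65. At TS34 the XY arrays had 8.05, 7.79 and 8.17 and the XX arrays 6.68, 6.77 and 6.59. Both stages showed every XY array above every XX array. XY minus XX was 1.86 ± 0.22 at TS24 (3.63-fold, adjusted p = 1.77e-09) and 1.32 ± 0.22 at TS34 (2.50-fold, 5.72e-06). At TS13 XY arrays had 8.35, 7.72 and 7.84 and XX arrays 7.31, 7.53 and 7.31. These do not overlap either, but the difference of 0.59 ± 0.22 was not called (adjusted p = 0.164). It was called after quantile normalization (0.72, adjusted p = 0.0188) and median centring (0.68, 0.0434).

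The steps of Cyp26b1 rested on the scaling. From TS13 to TS24 XY supporting cells rose by 0.68 ± 0.22 (adjusted p = 0.0244), beside 0.222 for the median of all genes. After quantile normalization the step was 0.37 (adjusted p = 0.274) and after median centring 0.52 (0.0895). It was also lost without XY TS13 replicate 2 (0.55, adjusted p = 0.129) or 3 (0.61, 0.104) and without XY TS24 replicate 1 (0.54, 0.150) or 3 (0.50, 0.164). In XX supporting cells the first step was -0.59 ± 0.22 (adjusted p = 0.162), called after quantile normalization (-0.72, 0.0289). Germ cells had group means of 6.55 to 7.09 and no called sex difference. The sex difference was larger in supporting than in germ cells at TS24 and TS34, germ minus supporting being -1.64 ± 0.33 (adjusted p = 2.72e-04) and -1.13 ± 0.31 (0.00802).

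Cyp26a1, the other hydroxylase gene of the 10, was dim on all arrays, at 5.16 to 5.91, and on 27 of 35 it was above the array's 25th percentile. Its 6 sex differences ran from -0.13 to 0.40 and its 8 steps from -0.44 to 0.44. None of its 25 comparisons was called, and the germ XX step from TS24 to TS34 (0.44 ± 0.22) was called after median centring (0.58, adjusted p = 0.0473). At such low values a difference may be understated, which was not tested.

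Crabp1, a cytoplasmic retinoic acid binding protein gene, was the member highest in germ cells against supporting cells, and there it was lower in XY from TS24 on. At TS13 XX germ cells had 11.06, 10.93 and 10.77 and XY germ cells 11.65, 10.37 and 11.51, which overlap. At TS24 the 2 XX arrays had 11.31 and 11.50 and the XY arrays 9.74, 10.40 and 10.26. At TS34 XX arrays had 11.38, 11.88 and 11.51 and XY arrays 9.21, 9.93 and 9.81. All XY arrays of the later stages lay below all XX arrays. XY minus XX came to 0.26 ± 0.27 for TS13, -1.27 ± 0.30 at TS24 (adjusted p = 0.0111) and -1.94 ± 0.27 at TS34 (3.90e-07). The TS24 call was lost without XX replicate 2 (-1.18, adjusted p = 0.234), without XY replicate 1 (-1.07, 0.0803) and with the left-out library kept (-0.97, 0.0567). The sex difference changed by -2.20 ± 0.38 from TS13 to TS34 (adjusted p = 1.35e-04), the members' largest such change in germ cells.

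Within XY germ cells Crabp1 fell by 1.04 from TS13 to TS24 (-1.04 ± 0.27, adjusted p = 0.0257). That call was lost without TS13 replicate 1 (-0.81, adjusted p = 0.271) or 3 (-0.88, 0.231) and without TS24 replicate 1 (-0.84, 0.237) or 3 (-1.11, 0.0552). XX germ cells had steps of 0.48 ± 0.30 and 0.18 ± 0.30, not called. Supporting cells had lower levels, with group means of 7.97 to 9.04, and no called sex difference (0.41 ± 0.27, 0.01 ± 0.27 and -0.09 ± 0.27). XY supporting cells fell at the first step by 0.83 (-0.83 ± 0.27, adjusted p = 0.0247). Without TS13 replicate 2 or 3 or TS24 replicate 1 or 3 that step was -0.76, -0.62, -0.81 and -0.68, with adjusted p of 0.0780, 0.173, 0.0807 and 0.123. Germ minus supporting was called in both sexes at all 3 stages, with 2.29 ± 0.27, 3.20 ± 0.30 and 3.53 ± 0.27 in XX and 2.14 ± 0.27, 1.92 ± 0.27 and 1.68 ± 0.27 in XY.

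Crabp2, the second gene of this family and known as a carrier of retinoic acid to its receptors, moved apart between the sexes in germ cells at TS24. The 2 XX arrays had 9.82 and 10.20 and the XY arrays 8.22, 9.12 and 8.84, without overlap. XY minus XX was -1.28 ± 0.30 (adjusted p = 0.0107). It was lost without XX replicate 2 (-1.09, adjusted p = 0.325) or XY replicate 1 (-1.03, 0.0929). At TS34 XX arrays had 10.34, 10.81 and 10.16 and XY arrays 9.66, 9.75 and 9.80. These do not overlap, but the difference of -0.70 ± 0.27 was not called (adjusted p = 0.0907), except after quantile normalization (-0.77, 0.0423). XY germ cells rose by 1.01 ± 0.27 from TS24 to TS34 (adjusted p = 0.0242), a call lost when any 1 of TS24 replicates 1 and 3 or the 3 TS34 arrays was left out (0.75 to 1.06, adjusted p = 0.0575 to 0.241). The XX steps of 0.93 ± 0.30 and 0.43 ± 0.30 were not called.

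In supporting cells Crabp2 varied between arrays of a group. At TS24 XX arrays had 9.54, 8.98 and 8.44 and XY arrays 8.09, 8.45 and 8.01, which overlap by 1 array. On XX replicate 1, the array highest in Crabp2, the mean of the 5 germ cell markers was 6.78, against 5.58 and 5.78 on the other XX arrays and 5.81 to 6.17 on the XY arrays. The difference of -0.80 ± 0.27 (adjusted p = 0.0318) was lost without XX replicate 1 (-0.53, 0.295) or 2 (-0.80, 0.0704) and without XY replicate 1 (-0.76, 0.113) or 3 (-0.71, 0.123). XX supporting cells fell from TS24 to TS34 by 1.07 (-1.07 ± 0.27, adjusted p = 0.0376), to 8.36, 7.17 and 8.21. XX replicate 1 was again highest there in Crabp2, with a germ cell marker mean of 6.93 against 5.90 and 5.98, and the part of germ cell RNA in the supporting cell values of Crabp2 was not tested. This step was lost without TS34 replicate 2 (-0.70, adjusted p = 0.767) or TS24 replicate 1 (-0.80, 0.367) or 2 (-1.08, 0.132), and after quantile normalization (-0.97, 0.0725) and median centring (-0.95, 0.102). Germ cells lay above supporting cells by 1.02 ± 0.30 at TS24 and 2.53 ± 0.27 at TS34 in XX gonads and by 1.50 ± 0.27 at TS34 in XY gonads. The XX TS24 value was lost without germ replicate 2 (0.83, adjusted p = 0.116) or supporting replicate 3 (0.75, 0.0813).

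Stra6, the cell surface receptor through which cells take up retinol from its plasma carrier, rose in XX supporting cells and had its 1 called sex difference there at TS24. XX arrays went from 7.41, 7.52 and 7.44 at TS13 to 8.70, 8.60 and 8.18 at TS24, and stood at 8.23, 7.83 and 8.22 at TS34. XY arrays had 7.48, 7.94 and 7.50 at TS13, 7.53, 7.83 and 7.49 at TS24 and 7.65, 7.75 and 7.70 at TS34. At TS24 all XX arrays lay above all XY arrays. The XX step from TS13 to TS24 was 1.04 ± 0.19 (adjusted p = 2.31e-04), and XY minus XX at TS24 was -0.88 ± 0.19 (5.04e-04). At TS34 the difference of -0.40 ± 0.19 was not called (adjusted p = 0.200). Germ cells had group means of 7.18 to 7.49 and sex differences of 0.15 ± 0.19, 0.12 ± 0.21 and -0.26 ± 0.19. At TS24 the sex difference in germ cells stood 1.00 ± 0.29 above that in supporting cells (adjusted p = 0.0158), and this was lost without germ XX replicate 1 (0.96, adjusted p = 0.0572) or germ XY replicate 3 (0.82, 0.0727).

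Rarb, the receptor gene that retinoic acid itself induces in many tissues, lay between 5.73 and 6.80 on the 35 arrays. Its 12 group means spanned 0.43, the narrowest range of the 10 genes. Sex differences ran from -0.26 to 0.11 with standard errors of 0.22 to 0.24, steps from -0.30 to 0.10, and germ minus supporting from -0.03 to 0.39. None of its 25 comparisons was called. A change of the size seen in Aldh1a1 or Crabp1 was not measured in it.

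Germ and supporting cells were compared within each sex and stage. Each cell type came from its own mouse lines, so the effects of line and of cell type cannot be told apart. In XX gonads 5, 6 and 7 of 10 genes were called at TS13, TS24 and TS34, where 30.4%, 27.9% and 30.1% of all genes tested were called. In XY gonads 5, 4 and 6 were called, beside 32.4%, 31.9% and 28.9%, so that the 4 of 10 at TS24 lay near the share of all genes. Aldh1a1 and Aldh1a2 were lower in germ cells in all 6 comparisons, and Crabp1 was higher in all 6. For Aldh1a1 germ minus supporting ran from -1.59 ± 0.23 in XX at TS13 to -4.20 ± 0.23 in XX at TS34. Aldh1a2 was lower by -0.72 ± 0.22, -2.67 ± 0.24 and -3.08 ± 0.22 in XX and by -0.87 ± 0.22, -1.80 ± 0.22 and -0.61 ± 0.22 in XY. Its XX TS13 call was lost without supporting replicate 3 (-0.61, adjusted p = 0.0577), and its XY TS34 call without germ replicate 1 (-0.50, 0.103) or supporting replicate 3 (-0.50, 0.144). Cyp26b1 was lower in germ cells in XY gonads at each stage (-1.23 ± 0.22, -1.56 ± 0.22 and -1.26 ± 0.22) and in XX gonads at TS13 alone (-0.71 ± 0.22). Stra6 was lower in XX gonads at TS24 (-1.27 ± 0.21) and TS34 (-0.65 ± 0.19). In XY gonads at TS34 it was lower by -0.51 ± 0.19 (adjusted p = 0.0368), which leaving out any 1 of 5 arrays of those groups ended (-0.54 to -0.42, adjusted p = 0.0594 to 0.117).

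Whether a sex difference itself changed was tested with stage and between cell types. From TS13 to TS34 it changed in 3 of 10 genes in germ cells (Aldh1a1, Aldh1a2 and Crabp1), where 3.69% of all genes tested were called, and in 3 of 10 in supporting cells (Aldh1a1, Aldh1a2 and Dhrs3), where 4.88% were. Aldh1a1 and Aldh1a2 changed upwards in germ cells and downwards in supporting cells. Between the cell types 1 of 10 differed at TS13 (1.66% of all genes), namely Aldh1a1, with germ minus supporting at -2.50 ± 0.32 (adjusted p = 3.01e-07). At TS24 there were 4 of 10 (9.91%), Cyp26b1, Dhrs3, Crabp1 and Stra6. At TS34 there were 4 of 10 (12.8%), Aldh1a2, Cyp26b1, Dhrs3 and Crabp1. Dhrs3 had the largest, at 2.31 ± 0.39 at TS24 (adjusted p = 1.43e-05) and 3.22 ± 0.37 at TS34 (1.50e-09). For Crabp1 it was -1.28 ± 0.40 at TS24 (adjusted p = 0.0298) and -1.84 ± 0.38 at TS34 (2.64e-04), and the former was lost without any 1 of 5 of the 11 arrays of those groups (-1.37 to -1.06, adjusted p = 0.0521 to 0.131). Each of these tests that uses supporting cells at TS24 or TS34 has their sex tied to the mouse line.

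Beside the 10 genes, a list of 63 other genes of the pathway was followed, of which 56 had a probe set of 1 symbol and 50 passed the filter. Rdh12, Rdh16, Aldh8a1, Bco2, Rpe65 and Sdr16c5 did not pass it. Between XY and XX germ cells the counts called higher and lower were 0 and 0 at TS13 (0 at an unadjusted limma p under 0.05), 1 and 5 at TS24, and 2 and 5 at TS34. In supporting cells they were 3 and 3 at TS13, 7 and 10 at TS24, and 6 and 5 at TS34. In either direction 0, 6 and 7 of 50 were called in germ cells at TS13, TS24 and TS34, where 0.0285%, 1.96% and 10.5% of all genes tested were. In supporting cells 6, 17 and 11 of 50 were called, where 3.77%, 15.3% and 14.0% were. The 7 of 50 in germ cells at TS34 lay near the share of all genes. The median differences of the 50 genes were 0.004, 0.012 and 0.040 in germ cells and -0.043, -0.033 and 0.002 in supporting cells.

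Enzymes of retinol and retinal included the widest supporting cell differences of this list. Adh1, an alcohol dehydrogenase that can oxidise retinol, was at 8.24, 8.09 and 7.58 on XX and 10.70, 10.40 and 10.12 on XY supporting cell arrays at TS13. XY minus XX came to 2.44 ± 0.25 for TS13, 3.13 ± 0.25 at TS24 and 3.39 ± 0.25 at TS34 (adjusted p = 1.14e-15), with no overlap at any stage. The aldo-keto reductase gene Akr1b8 was higher in XY by 1.35 ± 0.29, 2.43 ± 0.29 and 2.53 ± 0.29. Rdh10, whose enzyme carries out the main oxidation of retinol in the embryo, was lower in XY supporting cells at TS24 (-1.35 ± 0.21, adjusted p = 1.18e-06) and TS34 (-1.30 ± 0.21), and at TS13 the difference was -0.37 ± 0.21. In germ cells at TS34 Rdh10 was at 9.24, 8.99 and 9.13 in XX and 8.06, 8.52 and 8.54 in XY (-0.75 ± 0.21, adjusted p = 0.0115), a call lost without XY replicate 1 (-0.59, 0.0678). Dhrs4, a retinal reductase gene, was lower in XY supporting cells at TS24 and TS34 (-0.79 ± 0.22 and -1.03 ± 0.22), and its relative Dhrs7 at TS13 and TS24 (-1.12 ± 0.24 and -0.81 ± 0.24). The TS24 calls were lost without XY replicate 2 for Dhrs4 (-0.54, adjusted p = 0.128), and without XX replicate 1 or 2 or XY replicate 2 or 3 for Dhrs7 (-0.75 to -0.67, 0.0561 to 0.0829).

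Fabp5, a fatty acid binding protein that also carries retinoic acid, was higher in XY supporting cells at each stage (0.86 ± 0.23, 2.28 ± 0.23 and 2.89 ± 0.23) and in XY germ cells at TS24 (0.89 ± 0.25, adjusted p = 0.0477) and TS34 (1.11 ± 0.23). Its TS13 supporting cell call was lost without XX replicate 1 or 2 or XY replicate 2 (0.64 to 0.86, adjusted p = 0.0531 to 0.236), and its TS24 germ cell call without any 1 of the 5 arrays (0.72 to 1.01, 0.0671 to 0.293). Of 5 Sertoli markers 1, Cst9, was called higher in XY germ cells at TS24 and TS34. The part of Sertoli cell RNA in the germ cell values of Fabp5 was not tested. Cyp2s1, a P450 gene with reported activity on retinoic acid, was higher in XY supporting cells at TS24 (1.11 ± 0.23, adjusted p = 2.85e-04). At TS34 it was higher by 0.66 ± 0.23 (adjusted p = 0.0495), which leaving out any 1 of those 6 arrays other than XX replicate 1 ended (0.47 to 0.71, adjusted p = 0.0803 to 0.325).

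Among the receptors, Rara was higher in XY supporting cells at TS24, with 9.55, 9.63 and 9.59 against 8.96, 8.88 and 8.46 in XX (0.82 ± 0.21, adjusted p = 0.00336), and at TS34 (0.82 ± 0.21, 0.00356). Its sex differences in germ cells were 0.23 ± 0.21, 0.34 ± 0.24 and 0.38 ± 0.21, not called. Rxra was lower in XY germ cells at TS24 (-0.77 ± 0.22, adjusted p = 0.0456), a call lost without any 1 of the 5 arrays (-0.85 to -0.71, adjusted p = 0.0520 to 0.345). Rarg, Rxrb and Rxrg had no called sex difference. The receptor coactivator gene Ncoa1 was lower in XY germ cells at TS24 (-0.98 ± 0.23) and TS34 (-1.13 ± 0.21, adjusted p = 7.01e-05). The TS24 call was lost without XX replicate 1 or 2 or XY replicate 2 (-1.03 to -0.92, adjusted p = 0.0503 to 0.118).

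Of 16 genes known to respond to retinoic acid, 0 were called between XY and XX germ cells at TS13 (0 at an unadjusted limma p under 0.05), 3 at TS24 and 2 at TS34, all lower in XY. In supporting cells 2, 7 and 3 of 16 were called at the same stages, all lower in XY except Hoxa5 at TS24 (0.67 ± 0.22), which is named after its value was seen. Of all genes tested 0.0285%, 1.96% and 10.5% were called in germ cells at TS13, TS24 and TS34, and 3.77%, 15.3% and 14.0% in supporting cells. The counts of 2 and 3 of 16 at TS34 lay near these shares. In each of these comparisons most of the list was not called. Stra8, needed for entry into meiosis, was lower in XY germ cells at TS34, at 5.13, 5.77 and 5.82 against 10.40, 10.06 and 10.21 in XX (-4.65 ± 0.22, adjusted p = 8.83e-23). At TS24 its difference was -1.75 ± 0.24, and -1.17 without XX replicate 1. The meiotic cohesin gene Rec8 was lower in XY germ cells by -1.11 ± 0.26 at TS24 and -2.40 ± 0.23 at TS34, and the former was lost without XX replicate 2 (-0.63, adjusted p = 0.525) or XY replicate 2 (-1.03, 0.0766). Rec8 was also lower in XY supporting cells, at 5.97, 6.49 and 6.11 against 7.98, 7.34 and 7.48 in XX at TS24 (-1.42 ± 0.23, adjusted p = 4.61e-06) and by -1.59 ± 0.23 at TS34, while Stra8 had supporting cell means of 5.02 to 5.30. The XX array at 7.98, replicate 1, had a germ cell marker mean of 6.78. That mean was 5.58 and 5.78 on the other XX arrays and 5.81 to 6.17 on the XY arrays. The part of germ cell RNA in the supporting cell values of Rec8 was not tested. The chemerin gene Rarres2 was lower in XY supporting cells at TS24 and TS34 (-1.24 ± 0.23 and -1.10 ± 0.23). Of the transcription factor genes, Nr2f2 was lower in XY supporting cells at TS13 and TS24 (-1.13 ± 0.27 and -1.54 ± 0.27), and Meis1 and Meis2 at TS24 (-1.08 ± 0.25 and -0.78 ± 0.26). Meis2 was lower in XY germ cells at TS24 as well (-1.19 ± 0.29). At that stage the stromal gene Dcn was at 7.19 and 7.99 on the XX and 6.17 to 6.52 on the XY arrays. Of the 5 stromal markers measured Dcn alone was called there. Pdgfra, Tcf21, Col1a1 and Col3a1 had means of 6.86, 6.11, 7.89 and 7.61 in XX and 6.72, 6.07, 7.84 and 7.23 in XY germ cells. The part of stromal RNA in the Meis2 value was not tested. The Meis2 call was lost without XX replicate 2 (-0.75, adjusted p = 0.496) or XY replicate 2 (-1.09, 0.0897). The supporting cell call of Meis2 was lost without any 1 of XX replicates 1 and 3 and XY replicates 1 and 3 (-0.81 to -0.68, adjusted p = 0.0551 to 0.118).

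**Figure D4:**
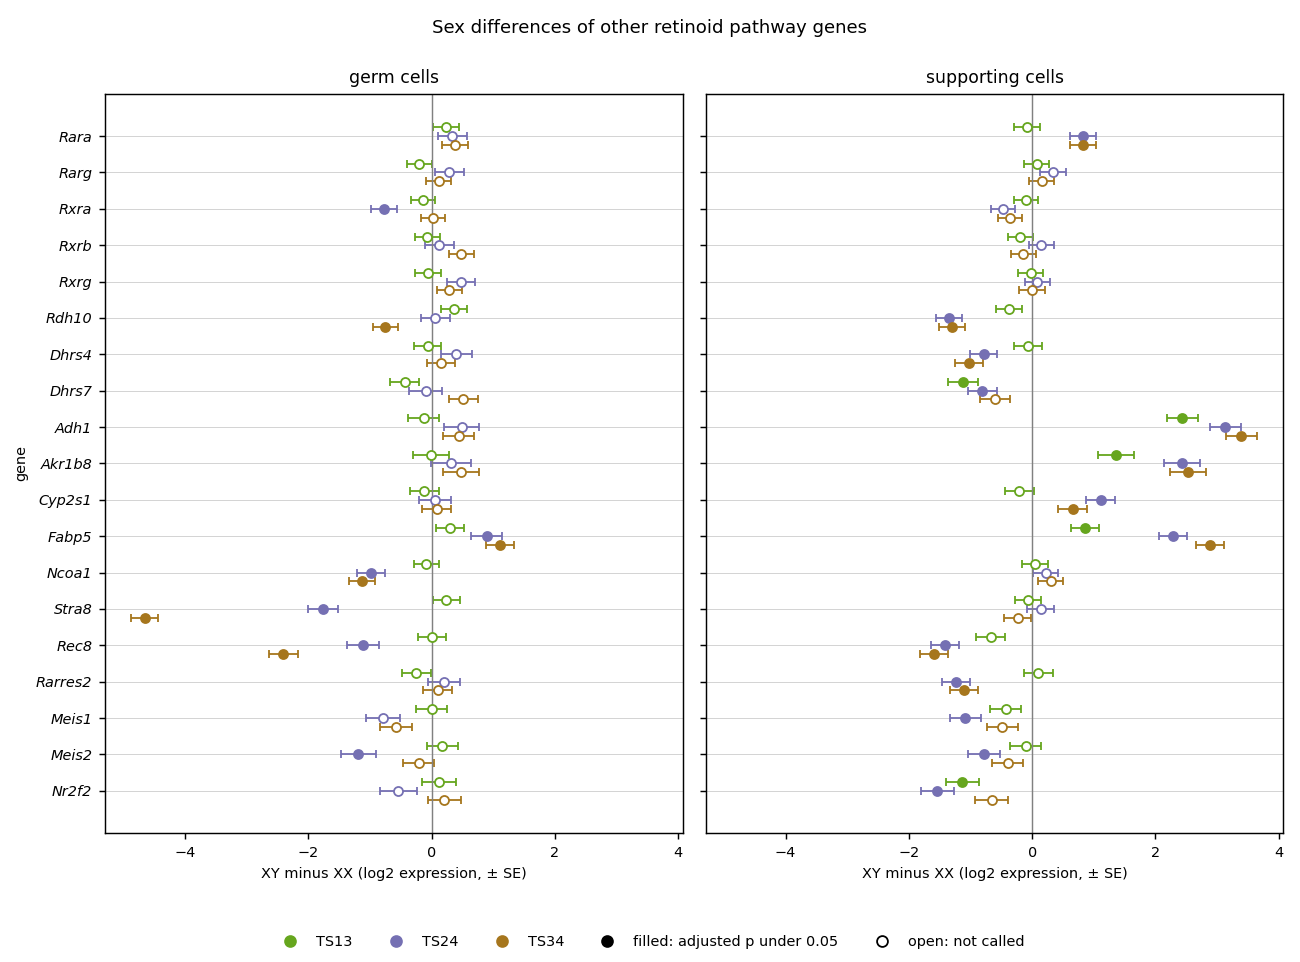
XY minus XX difference (log2 expression ± SE, horizontal axis) of 19 other genes of the pathway in germ cells (left) and supporting cells (right) at 3 stages (colour), filled where limma's adjusted p is under 0.05. Adh1, Akr1b8 and Fabp5 stand to the right in supporting cells at every stage, and Stra8 stands far to the left in germ cells at TS34.

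The genes whose pattern over the 35 arrays was most like that of a member were named for the 6 members whose group means span at least 2. These correlations are descriptions over arrays that share cell type, sex and stage. For Aldh1a1 they were Gatm (r = 0.983), Gstm7 (0.937) and Tnik (0.931). For Aldh1a2 they were Aldh1b1 (0.923), Lrrn1 (0.920) and Cntn4 (0.917), and for Cyp26b1 Olfml3 (0.939), Pcsk5 (0.938) and Cbln4 (0.926). Dhrs3 went most closely with Slc7a2 (0.964), Igf2 (0.962) and Zim1 (0.959). Crabp1 went with Phf19 (0.935), Rhox6 (0.934) and Cenps (0.931), and Crabp2 with Dgkk (0.865), Pcmt1 (0.844) and Ranbp9 (0.841).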

How the data were processed

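The authors deposited log2 expression values per probe set of 36 arrays, summarised with RMA per the submitters' processing notes, whose software version was not found in these sources. The deposited values were used without further normalization (array medians 6.412 to 6.841). Of 35557 probe sets 21789 had 1 gene symbol in the platform annotation supplied with the series, 1621 had several and 12147 were not listed. Of the 21789, 21698 were matched by Entrez identifier to RefSeq and took its symbol, whether or not it differed. The probe set with the highest mean per gene was kept. Genes above an array's 25th percentile on 3 or more arrays were tested (17571 kept, 2367 removed).

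The 35 arrays were fitted with limma 3.58.1 (R 4.3.3), using 1 mean per group, no covariates and empirical Bayes variances, with degrees of freedom of 23 (residual) and 25.942 (prior). The median standard error over all genes tested was 0.211 for the sex difference of germ cells at TS34. There were 25 comparisons (6 of sex, 8 stage steps, 6 of cell type and 5 differences of sex differences), each adjusted over all genes tested. Precision is limited by how many arrays each group has. The procedure was tested on simulated data.

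All members are named. Of the other pathway genes those called in a sex comparison with a difference of at least 1 are named, and 5 receptor genes in any case. Members and lists were chosen with earlier results of these data known. Marker lists for 11 cell types were used. Those for endothelial cells, macrophages, mesonephric tubules and surface epithelium had 0 genes called between the sexes in supporting cells; in germ cells the mesonephric gene Lhx1 alone was called, higher in XY at TS24 (1.64 ± 0.25) and TS34 (1.76 ± 0.23). Among the germ markers Pou5f1 (0.91 ± 0.25) and Nanos3 (1.84 ± 0.22) were higher in XY germ cells at TS34.

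Replicate numbers were not taken to pair arrays. Of 56 same-numbered pairs 5 had deviations correlated at r over 0.1, and in 0 of 20 comparisons did every pair. Alternatives tried were quantile normalization, median centring, no filter or one at the 50th percentile, the mean over probe sets of a gene, all 36 arrays, separate fits per cell type, an intensity trend with robust variances, a replicate block, and leaving out each array.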

Additional observations from a re-analysis of the deposited data

Results flagged for a closer look

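The sex difference (XY minus XX, log2) of some members differed by limma's interaction test between stages or cell types, and the technical or biological sources of these differences were not tested. In germ cells the difference at TS34 minus that at TS13 was 1.602 for Aldh1a1, 1.205 for Aldh1a2 and -2.197 for Crabp1. In supporting cells it was -1.662 for Aldh1a1, -1.405 for Aldh1a2 and -2.467 for Dhrs3, with sex tied to the mouse line at TS34 but not at TS13.

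The difference in germ cells minus that in supporting cells was -2.504 for Aldh1a1 at TS13. At TS24 it was -1.637 for Cyp26b1, 2.306 for Dhrs3, -1.280 for Crabp1 and 0.998 for Stra6. At TS34 it was 2.463 for Aldh1a2, -1.127 for Cyp26b1, 3.218 for Dhrs3 and -1.845 for Crabp1. At TS24 and TS34 the supporting cell part of these values has sex tied to the mouse line.

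The library that was left out, labelled as replicate 3 of XX germ cells at TS24, held 2 members at levels above all 35 arrays used. Aldh1a2 was at 10.894 on it, where the 35 arrays reached 10.404, and Rarb was at 7.204, where they reached 6.795. The mean of its interstitial and stromal markers was 9.785, beside 6.385 to 7.566 on the other arrays.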

How the results depend on the processing

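Of 78 member calls, 76 held their direction and threshold after quantile normalization, 76 after median centring and 77 with an intensity trend. All 78 held with no filter, with a filter at the 50th percentile and with probe set means. Those last settings could hardly end a member call. Each member has 1 probe set, so its values stayed as they were and only the other genes beside it changed. In separate fits per cell type 34 of the 36 that could be fitted held; comparisons between cell types could not be fitted there. No alternative turned the direction of a call. Of member results not called, 7 became called after quantile normalization and 6 after median centring. In XY germ cells the step of Aldh1a2 from TS24 to TS34 was 1 of them (0.73, adjusted p = 0.0201, and 0.72, 0.0335). That of Aldh1a1 was called after median centring (0.73, 0.0477). The germ minus supporting sex difference was gained for Aldh1a2 at TS24 (quantile normalization, 0.99, 0.0146) and Crabp2 at TS34 (-1.08, 0.0373, and -1.13, 0.0327). With all 36 arrays the counts fell to 11 for sex (from 18 of 60 tests), 7 for stage steps (from 12 of 80) and 9 for differences of sex differences (from 15 of 50), while cell type went from 33 to 30 of 60. Of the 78 calls 55 held there; in comparisons without that library the differences stayed as they were and the residual spread was larger. Leaving out each array in turn gave 16 to 19 calls for sex, 9 to 13 for steps, 31 to 34 for cell type, 13 to 17 for differences, and 41 to 49 for the other pathway genes between the sexes (47 in the fit reported). With a replicate block the counts were 18, 12, 33, 15 and 45; it changed no member call, but ended the calls of Rxra in germ cells at TS24 (adjusted p = 0.0603) and Cyp2s1 in supporting cells at TS34 (0.0549). Groups of 3 arrays, and of 2 for XX germ cells at TS24, limit what can be called, and at the low signal of Cyp26a1 a difference may be understated, which was not tested.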

Other observations

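On the library of somatic profile that entered no comparison, the other members were at 8.74 (Aldh1a1), 6.79 (Aldh1a3), 5.22 (Cyp26a1), 6.67 (Cyp26b1), 9.81 (Dhrs3), 10.52 (Crabp1), 10.38 (Crabp2) and 7.61 (Stra6). Crabp2, the binding protein gene, was higher on it than on 34 of the 35 arrays used, Crabp1 than on 25 and the reductase gene Dhrs3 than on 26. The mean of its 5 pregranulosa markers was 9.33, in the range of XX supporting cells (9.04 to 9.80).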
